A study of Mus musculus with 54 samples.

Results

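Frozen and thawed kidney cells from warm dissociation were compared with frozen and thawed cells from cold dissociation, to ask whether the gene expression difference between the protocols was still present after storage. The samples are defined by their labels: 3 warm-dissociated and 3 cold-dissociated cryopreserved libraries of C57BL/6J kidney, 6 of the 54 samples in the series, with 3483 and 3519 cells and 7002 in all. All came from untreated male AFAPIL.1DEL C57BL/6J mice of the same litter, 19 weeks old, so both groups carry whatever that line designation denotes, and the results speak for a single line, sex and age. Warm dissociation used the Miltenyi Multi-tissue dissociation kit 2 at 37 °C; cold dissociation used a protease of Bacillus licheniformis on ice. Aliquots of both kinds of suspension were frozen in the same medium (50% FBS, 40% RPMI-1640 and 10% DMSO), kept in liquid nitrogen for 6 weeks and thawed before 10x version 2 libraries were made. The 6 fresh libraries of the same suspensions (23108 cells) served as a reference. The enzyme, its temperature and the handling differ together between the groups and cannot be told apart, and the labels do not say which warm and cold libraries share a mouse.

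Enzymatic dissociation is known to switch on immediate-early genes, which are transcribed within minutes of a stimulus without new protein synthesis. Fos and Jun family proteins pair up as the transcription factor AP-1. Feedback regulators such as Dusp1, a phosphatase that switches off MAP kinases, and Nfkbia, which holds NF-kB in the cytoplasm, are induced by the same signals and limit them. Heat shock genes such as Hspa1a encode chaperones that refold damaged protein and are driven by the factor Hsf1.

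Upstream sequence is shown for 3 of these genes because their promoter windows hold the elements searched. Windows in RefSeq (GRCm38.p6) were found for 13 of the 17 stress-response genes (a list the study made). A match is a description of the letters and not a measured binding site. The Hsf1-type element GAANNTTC, searched on both strands with overlaps to other motifs allowed, was present in 4 of them (Hspa1a, Hspa1b, Hspb1 and Jun), against 7.86% of 32851 promoter windows. Hspa1a and Hspa1b are near-identical copies with the match at the same distance from the start site, so they are not independent. The cAMP response element TGACGTCA was present in 2 (Dusp1 and Btg2), against 1.79% of windows. TGAGTCA, an AP-1 site, was in none of the 13 and in 5.2% of all windows, and the CArG box was in none and in 1.63%. In the longer list of AP-1 and immediate-early genes, with 30 windows for 21 genes, TGAGTCA was in 1 window and the CArG box in 5. Each window holds 300 bases around the start site, and sites outside it were not searched. No window was held for Egr1, Hspa8, Hsp90ab1 and Ier2. The 200 bases before the start site are given 5′ to 3′ on the minus strand, with the motif in capitals: GAANNTTC in Hspa1a (chr17:34972157-34972356), and TGACGTCA in Dusp1 (chr17:26508473-26508672) and in Btg2 (chr1:134079156-134079355).
Hspa1a: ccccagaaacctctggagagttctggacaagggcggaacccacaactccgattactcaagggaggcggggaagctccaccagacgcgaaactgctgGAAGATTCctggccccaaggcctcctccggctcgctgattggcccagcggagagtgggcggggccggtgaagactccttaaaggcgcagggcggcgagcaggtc
Dusp1: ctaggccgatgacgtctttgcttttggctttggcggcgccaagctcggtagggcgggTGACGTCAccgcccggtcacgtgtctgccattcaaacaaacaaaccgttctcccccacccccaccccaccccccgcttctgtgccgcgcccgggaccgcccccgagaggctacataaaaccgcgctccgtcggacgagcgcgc
Btg2: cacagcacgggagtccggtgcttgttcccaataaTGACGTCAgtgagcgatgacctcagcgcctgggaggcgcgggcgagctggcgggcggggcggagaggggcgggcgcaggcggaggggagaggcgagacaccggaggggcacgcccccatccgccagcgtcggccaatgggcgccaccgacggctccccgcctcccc

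The libraries held 897 to 1629 cold and 1000 to 1255 warm cells, with total UMI counts (unique molecular identifiers, 1 per captured transcript) of 1816117 to 2742014 and 1589682 to 2016943. Warm library 1 stood apart, with the lowest median depth (866 UMIs per cell against 1256 to 1610 in the other 5) and the highest median mitochondrial share (25.2% of UMIs against 11 to 15.0%). Cells were clustered and named from marker genes. Of the 13 classes with enough cells to test, 11 are given by name. In 9 of the 11 all listed markers of the class were higher than in other cells; in endothelial cluster 2 it was 13 of 14 and in connecting tubule 8 of 9. Endothelial cluster 2 is led by Esm1 and Plvap. The other 2 are given by number or leading genes alone, cluster 12 (Sox17, Fbln5) and an unnamed cluster led by Cp and C3. Cluster 12 had 14 of 14 endothelial markers above other cells, but its 10 leading genes held 0 endothelial markers and 1 of the collecting duct principal cells, so its values are not given as those of endothelial cells. Intercalated cells of cold libraries lay mostly in cluster 28 (98 against 49 cells in cluster 21) and those of warm libraries mostly in cluster 21 (179 against 131). Macrophages lay mostly in cluster 6 in both groups (530 cold, 357 warm), with 56 cold and 138 warm in cluster 18. When the cryopreserved cells were clustered alone, several classes split by group. Macrophages fell into clusters of 441 cold and 115 warm, 92 and 128, and 20 and 169 cells, and B cells into 364 and 80, and 40 and 158. Principal cells fell into a cluster of 30 cold and 238 warm cells led by Gdf15, at a median of 859 UMIs, and another of 80 and 64 at 3128 UMIs. Intercalated cells fell into clusters of 92 and 123, 17 and 143, and 39 and 63 cells. The mesangial and mural clusters there, of 124 cold and 14 warm and of 12 cold and 127 warm cells, hold more warm cells than the tested class of 134 cold and 66 warm, so that class depends on the clustering. Monocytes fell into clusters of 132 cold and 56 warm and of 103 and 17 cells. Dendritic cells fell into clusters of 153 and 150 and of 10 and 14, against 134 and 84 in the tested class. Endothelial clusters there included 192 cold and 89 warm, 201 and 199, and 24 and 57 cells. Differences within the macrophage, B cell, principal, intercalated and monocyte classes are therefore between cells that such a clustering partly separates. The endothelial clusters and the dendritic class depend on the clustering as well. Pairs of these libraries shared 3 to 9 cell barcodes, at most 0.906% of the smaller library.

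The deposited tables carry a filter that bears on every low value. In each library a gene seen in fewer than about 10 cells reads 0 in all its cells: 1855 to 3454 genes per cryopreserved library were at 0 throughout, and 6 to 161 had UMIs in 1 to 9 cells, against 1867 to 2566 in 10 to 19 cells. A gene at 0 throughout a library is therefore given as listed at 0, with no fold, and 8400 genes had UMIs in all 6 libraries. A 0 within a class can still be a measured 0 where other cells of the library hold the transcript.

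After freezing and thawing, most tests of immediate-early and feedback genes and a smaller share of those of heat shock genes were called higher in warm-dissociated cells, with several stress genes called lower in dendritic cells and monocytes and no call in connecting tubule. UMIs were summed per library and class and tested with edgeR's quasi-likelihood test, calls being at a Benjamini-Hochberg adjusted p under 0.05 within a class. Over 13 classes and 21773 tests of a gene in a class, 1115 calls were higher in warm (5.12% of the tests) and 257 were lower (1.18%). Of these, 13 and 7 were for genes listed at 0 in a library. The 17 stress-response genes that the study itself chose on these kidneys, and which are therefore not independent evidence of direction, gave 135 calls higher and 9 lower in 197 tests, with a median log2 difference of 1.29 against −0.01 over all tests. Every warm library exceeded every cold library in 149 of the 197 and lay below in 8, against 13.7% and 11.3% of all tests. Without warm library 1 the calls were 1003 higher and 178 lower, of which 129 and 9 were stress genes, and without warm library 3 the lower calls were 156. With 3 libraries a group (2 in the warm monocytes and in the cold ascending loop of Henle, where a library with under 10 cells was left out), the p-values measure the spread between these libraries only.

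**Figure D1:**
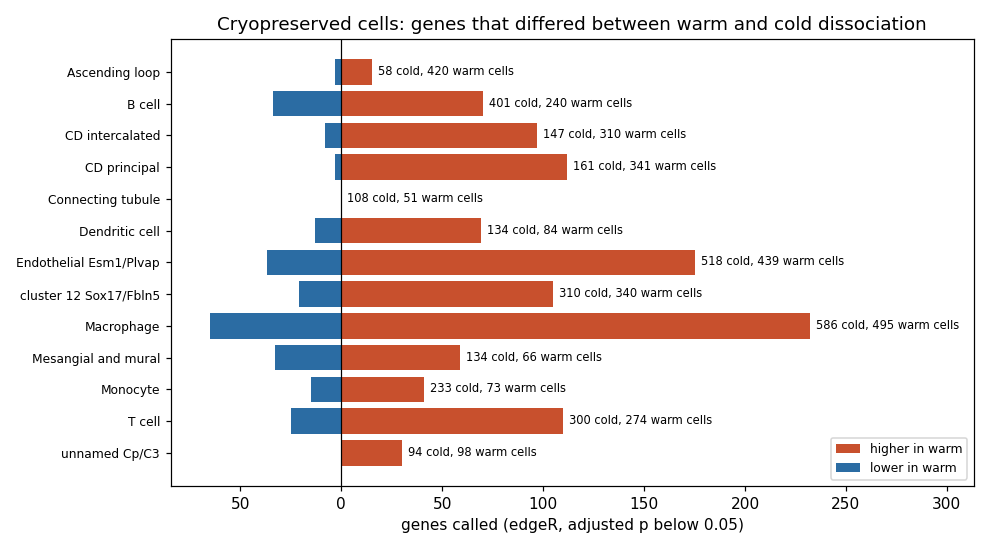
Number of genes called higher (bars to the right) or lower (bars to the left) in warm than in cold cryopreserved libraries, by cell class (edgeR, adjusted p under 0.05). Macrophages have the most calls, 232 higher and 65 lower, and connecting tubule has none.

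Calls were made in 12 of the 13 classes. Macrophages had 232 calls higher and 65 lower of 2698 genes tested, endothelial cluster 2 had 175 and 37 of 2869, collecting duct principal cells 112 and 3 of 1520, and T cells 110 and 25 of 1299. Intercalated cells had 97 higher and 8 lower, B cells 70 and 34, dendritic cells 69 and 13, and the ascending loop of Henle 15 and 3. Connecting tubule cells, with 108 cold and 51 warm cells, had 235 genes tested and 0 called by edgeR, with 27 at an unadjusted p under 0.05 and 0 called by DESeq2. The classes differ in cell number and depth, so these counts were not compared between classes.

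Among the AP-1 and other immediate-early factors, 131 of 185 tests were higher in warm and 6 lower, with a median log2 difference of 1.63 over 22 genes tested. Fos, Fosb, Jun, Junb, Jund, Atf3, Egr1, Ier2 and Ier3 of this list are also among the study's stress genes. The counts of this list are therefore not independent of those above. Jund, an AP-1 subunit, was called higher in 11 of the 12 classes in which it was tested, with log2 differences from 0.65 to 3.05. In endothelial cluster 2 its level, in normalized UMIs per 10000, was 4.97, 4.60 and 5.41 in the cold libraries and 43.9, 39.3 and 41.6 in the warm libraries (log2 difference 3.05, SE 0.16, edgeR adjusted p = 4.04e-18). In B cells Jund stood at 25.5, 25.3 and 24.9 in cold and 60.9, 54.2 and 57.1 in warm (1.17, SE 0.12, edgeR adjusted p = 7.08e-06). The warm and cold libraries did not overlap in either class.

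Fos, the founding AP-1 gene, was called higher in 10 of 12 classes. In collecting duct principal cells its level was 4.07, 2.31 and 7.55 in cold and 46.7, 39.0 and 57.6 in warm libraries (log2 difference 3.58, SE 0.31, edgeR adjusted p = 3.47e-07). In macrophages it was 17.7, 20.4 and 19.9 in cold and 36.7, 52.7 and 45.8 in warm (1.21, SE 0.15, edgeR adjusted p = 1.38e-06). Every warm library lay above every cold library in both classes. Junb, another AP-1 subunit, was also higher in 10 of 12 classes. In T cells Junb was 23.4, 13.5 and 16.2 in cold against 45.3, 50.5 and 53.3 in warm libraries (1.53, SE 0.21, edgeR adjusted p = 0.000198), and in principal cells 2.31, 1.38 and 3.02 against 28.4, 22.2 and 31.3 (3.82, SE 0.26, edgeR adjusted p = 8.94e-08). Fosb was called higher in 9 of 12 classes and Jun in 8.

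Klf6, a Kruppel-like factor, was called higher in 10 classes, with 2.64, 3.04 and 2.48 in cold and 13.2, 13.8 and 15.6 in warm macrophages (2.37, SE 0.17, edgeR adjusted p = 8.64e-11). In principal cells Klf6 was 0.543, 0.590 and 0.431 in cold and 7.33, 5.64 and 7.18 in warm (3.62, SE 0.28, edgeR adjusted p = 1.34e-07). Nr4a1, a nuclear receptor induced early by calcium and growth factor signals, was called higher in 9 classes. Atf3, a stress-induced transcription factor, was called higher in 7 of 11 classes. Its level in endothelial cluster 2 was 0, 0.650 and 0.851 in cold and 5.66, 5.18 and 4.25 in warm (3.30, SE 0.33, edgeR adjusted p = 1.30e-10). Egr1, a zinc finger factor, rose in 7 of 11 classes and fell in 2. In principal cells Egr1 stood at 2.31, 0.640 and 0.216 in cold and 9.64, 10.4 and 18.4 in warm libraries (3.69, SE 0.41, edgeR adjusted p = 4.49e-06). In macrophages Egr1 overlapped, with 5.48, 5.69 and 4.38 in cold and 3.05, 3.87 and 6.50 in warm (−0.21, SE 0.21, edgeR adjusted p = 0.626).

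**Figure D2:**
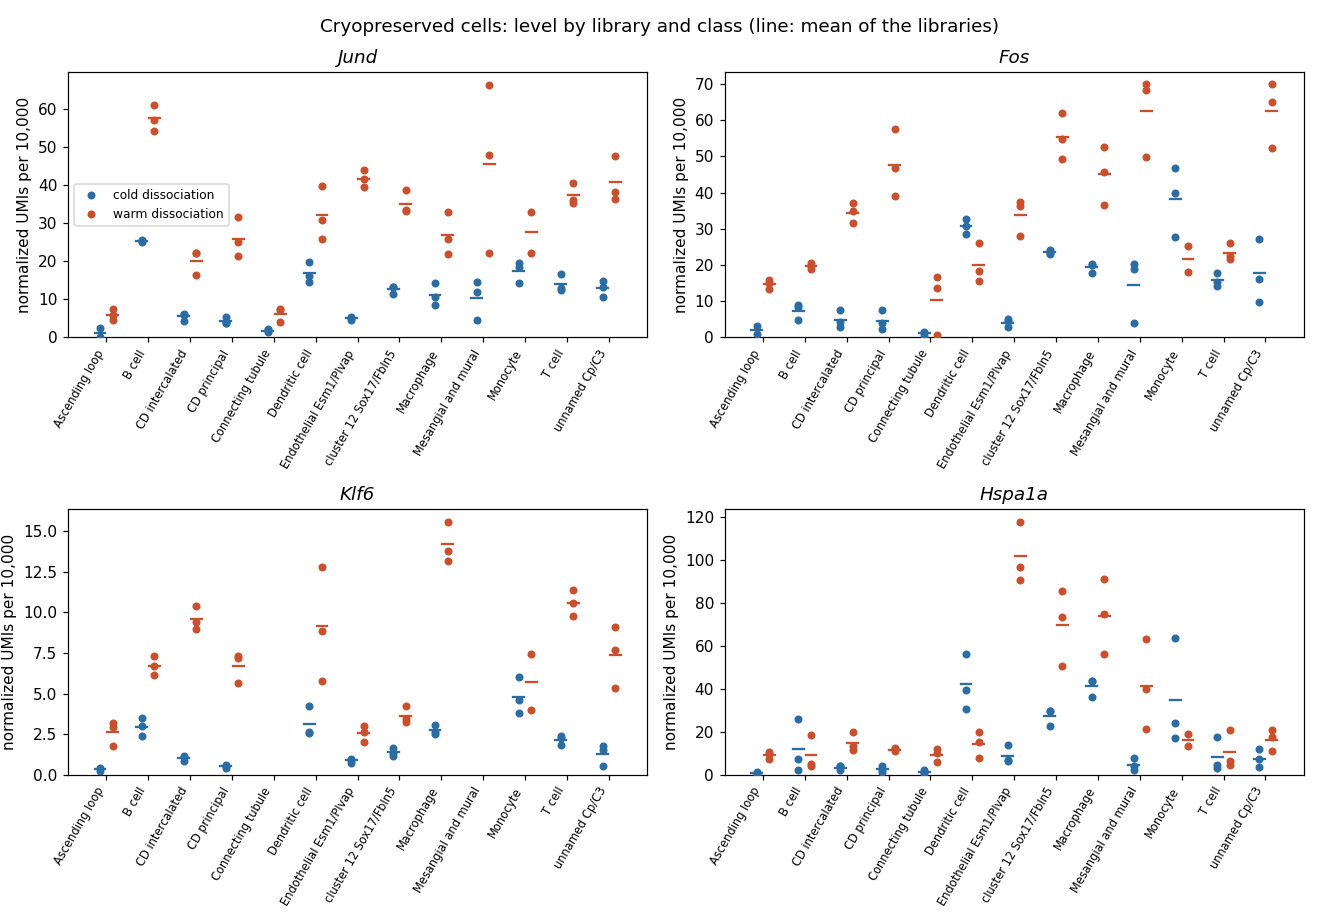
Levels of Jund, Fos, Klf6 and Hspa1a in normalized UMIs per 10000, by cell class, each point a cryopreserved library, cold and warm in separate colours and lines at the means. Warm points lie above cold points in most classes, while Fos and Hspa1a of dendritic cells lie below (Hspa1a 19.8, 7.57 and 15.3 in warm against 39.7, 30.7 and 56.4 in cold).

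Feedback regulators were higher in 120 of 184 tests and lower in 1, with a median log2 difference of 1.32 over 23 genes. Dusp1, Btg1 and Btg2 of this list are also among the study's stress genes. Zfp36, which degrades AU-rich messages, was called higher in 9 of 12 classes with a median log2 difference of 1.95, and in principal cells was 0.815, 0.197 and 1.08 in cold against 12.1, 16.3 and 22.0 in warm (5.09, SE 0.39, edgeR adjusted p = 1.34e-07). Dusp1 was called higher in 10 of 12 classes, with 6.61, 6.15 and 6.38 in cold and 26.4, 25.1 and 19.1 in warm libraries of endothelial cluster 2 (1.86, SE 0.16, edgeR adjusted p = 3.21e-12). Nfkbia was also called in 10 classes, by less, as in macrophages at 6.04, 6.57 and 4.31 in cold and 11.9, 9.08 and 12.3 in warm (0.95, SE 0.18, edgeR adjusted p = 0.000332). Socs3, an inhibitor of cytokine signalling, was higher in 8 of 9 classes, and Ppp1r15a, which restores translation after stress, in 9 of 12. In macrophages Ppp1r15a was 2.28, 1.33 and 1.54 in cold and 6.41, 7.09 and 7.90 in warm (2.04, SE 0.20, edgeR adjusted p = 2.36e-08). Tnfaip3, an NF-kB inhibitor, was tested in 4 classes and called higher in 3. In T cells Tnfaip3 was 0.381, 0.383 and 0.633 in cold and 6.51, 6.2 and 6.65 in warm (3.81, SE 0.27, edgeR adjusted p = 4.68e-07). The antiproliferative genes Btg1 and Btg2 were higher in 8 and 9 of 12 classes, and in dendritic cells Btg1 was 9.03, 7.44 and 8.03 in cold and 26.9, 21.4 and 17.8 in warm (1.45, SE 0.19, edgeR adjusted p = 3.10e-05).

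Heat shock chaperones and ubiquitin genes were higher in 61 of 167 tests and lower in 2, with a median log2 difference of 0.66. Hspa1a, Hspa1b, Hspa8, Hspb1 and Hsp90ab1 of this list are also among the study's stress genes. Hspa1a, the inducible Hsp70, was called higher in 7 of 12 classes and lower in 2. In endothelial cluster 2 it was 6.66, 6.30 and 13.6 in cold and 118, 90.9 and 96.9 in warm libraries (3.52, SE 0.20, edgeR adjusted p = 3.31e-17). In macrophages Hspa1a was 36.3, 43.5 and 43.9 in cold and 56.2, 74.9 and 91.4 in warm (0.84, SE 0.16, edgeR adjusted p = 0.000371). The groups did not overlap in either class. Hspa1b was higher in 6 of 10 classes, but Hspa1a and Hspa1b are near-identical copies, so the split of reads between them is uncertain. The constitutive Hspa8 was higher in 6 of 13 classes, as in macrophages at 14.0, 14.9 and 17.5 in cold and 48.0, 48.4 and 65.0 in warm (1.79, SE 0.15, edgeR adjusted p = 2.60e-09). Hspb1, a small heat shock protein, was higher in 7 of 9 classes, and the constitutive Hsp90ab1 in 3 of 13. In principal cells Hsp90ab1 overlapped at 9.64, 10.3 and 9.49 in cold and 13, 10.2 and 12.8 in warm (0.32, SE 0.18, edgeR adjusted p = 0.435).

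Over all tests 5.12% were called higher and 1.18% lower, against which the next lists can be read. Unfolded protein response genes were higher in 12 of 120 tests (median log2 difference 0.20). Hspa5, which is also in the heat shock list, gave 6 of the 12. The unfolded protein response genes were higher in 6 of 126 without cold library 2, in 7 of 121 without warm library 1 and in 6 of 120 with DESeq2. Over all genes the 1115 higher calls fell in those settings too, to 898, 1003 and 754. Higher calls were made for p53 targets and apoptosis genes in 12 of 36 tests (0.55) and for metallothioneins and Nrf2 targets in 9 of 35 (0.15). Single genes gave many of these, Cdkn1a 5 of the 12 and Mt1 6 of the 9. Cdkn1a, a p53 target that halts the cell cycle, was 1.45, 1.49 and 1.29 in cold and 6.73, 4.10 and 6.00 in warm macrophages (1.96, SE 0.20, edgeR adjusted p = 8.59e-08). The cold-inducible genes Rbm3 and Cirbp were called in 0 of 24 tests by edgeR, with 3 at an unadjusted p under 0.05, 0 called by DESeq2 and a median log2 difference of 0.15. Actin cytoskeleton genes were higher in 4 and lower in 5 of 115 tests, with a median log2 difference of 0.00. Transcripts of the mitochondrial genome were called in 1 of 163.

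**Figure D3:**
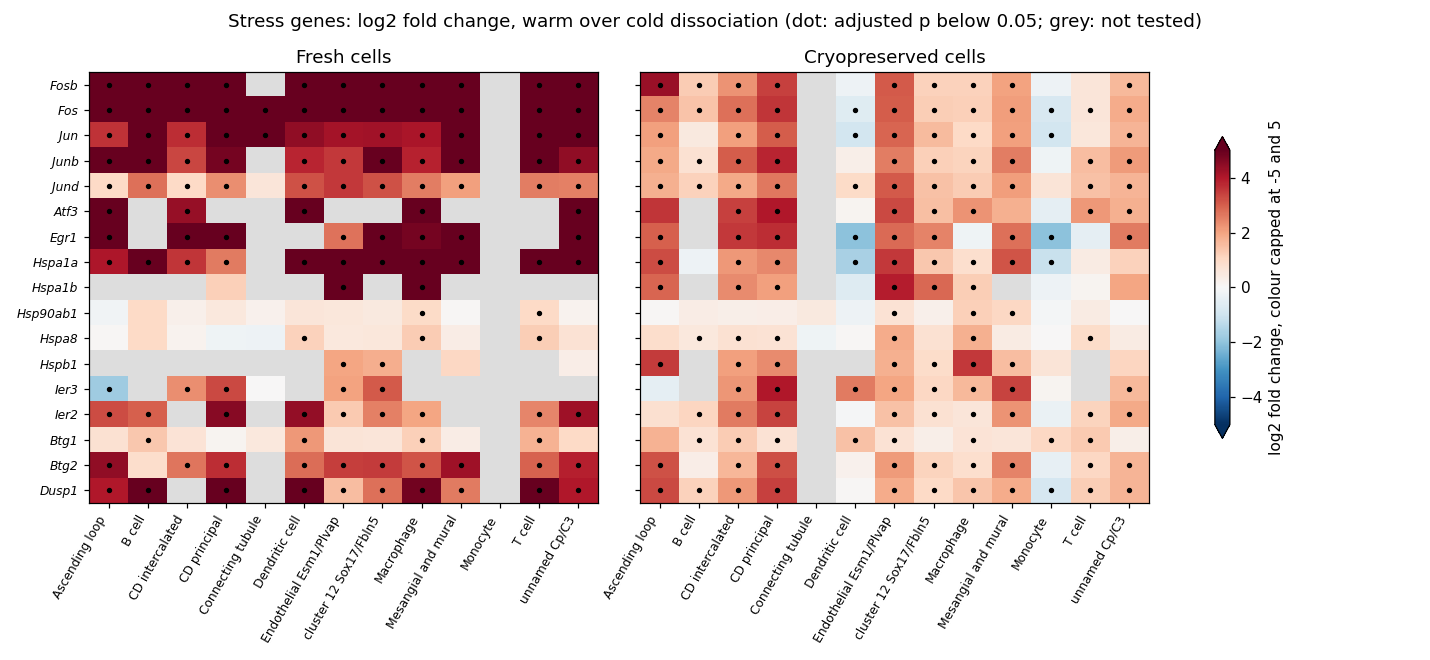
Log2 difference of warm minus cold for the 17 stress-response genes in each cell class, in fresh and in cryopreserved libraries; dots mark an edgeR adjusted p under 0.05, grey marks genes not tested, and the colour scale is capped at 5 in both directions. Most squares are higher in warm in both states, and the dendritic and monocyte columns are mixed after cryopreservation, with 3 higher and 4 lower, and 1 higher and 5 lower. Fosb, Fos, Egr1 and Atf3 were listed at 0 in some or all fresh cold libraries, so the size of their fresh differences is uncertain.

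The number of stress genes called higher is given by class. All 17 were called higher in endothelial cluster 2 (median 2.57), and 16 of 17 in principal cells (median 3.23), intercalated cells (2.18) and macrophages (1.18). In cluster 12 the count was 14 of 17 and in the mesangial and mural class 13 of 16. The ascending loop of Henle and the unnamed Cp/C3 cluster each had 11 of 17, T cells 9 of 15 and B cells 8 of 12. In intercalated cells the summed level of 11 collecting duct principal markers was 9.53, 31.3 and 7.20 UMIs per 10000 in cold and 58.7, 19.6 and 39.4 in warm libraries. In principal cells the summed level of 14 endothelial markers was 0.493, 1.27 and 1.06 in cold and 5.17, 11.5 and 5.12 in warm, with 13 of 14 higher. In endothelial cluster 2 these 14, its own markers, were lower in warm at 204, 187 and 193 in cold and 160, 155 and 154 in warm, with 0 of 14 higher, and 11 principal cell markers were at 0.247, 1.13 and 0.115 against 8.02, 1.88 and 1.28, with 11 of 11 higher. The endothelial markers were at 1.11 and 2.79 in cold and 7.18, 3.35 and 4.45 in warm cells of the ascending loop of Henle, and at 1.76, 0.645 and 3.48 against 4.62, 10 and 8.02 in the Cp/C3 cluster, with 12 of 14 higher in each. In intercalated cells they were at 0.908, 0.744 and 5.42 against 4.49, 4.98 and 5.74, which overlapped. In principal cells 8 ascending limb markers were at 7.52, 7.34 and 6.53 in cold. They were at 10.8, 9.01 and 10.4 in warm principal cells, with 5 of 8 higher. In the Cp/C3 cluster 8 of 8 were higher, and in macrophages 11 of 11 principal cell markers, with overlap of the libraries in both. The part of these in the results was not tested.

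Dendritic cells and monocytes did not show the same direction for several stress genes. In dendritic cells Egr1 was 2.45, 5.16 and 7.31 in cold and 1.82, 0.787 and 1.31 in warm (−2.05, SE 0.38, edgeR adjusted p = 0.00137), and Hspa1a was 39.7, 30.7 and 56.4 in cold and 19.8, 7.57 and 15.3 in warm (−1.61, SE 0.26, edgeR adjusted p = 0.000302). Both lay lower in every warm library. Fos of dendritic cells stood at 28.6, 30.7 and 32.8 in cold and 26.2, 18.4 and 15.7 in warm (−0.61, SE 0.17, edgeR adjusted p = 0.0327). Jun overlapped between the groups there, at 19.7, 18.5 and 25.8 in cold and 18.7, 7.08 and 9.54 in warm (−0.92, SE 0.25, edgeR adjusted p = 0.0276). In monocytes, with 2 warm libraries, Fos was 39.9, 27.8 and 46.8 in cold and 25.2 and 18.1 in warm (−0.80, SE 0.20, edgeR adjusted p = 0.00623). Jun, Dusp1, Egr1 and Hspa1a were also called lower in monocytes. The 9 lower calls over both classes were 2 without cold library 3, 3 without warm library 3 and 4 without warm library 2. Without either of those warm libraries the monocyte fit holds 1 warm library, which is assumed to vary like the cold ones. DESeq2 made 3 lower calls. The summed level of 8 ascending limb markers in dendritic cells was 0.529, 0.617 and 0.375 in cold and 9.87, 1.71 and 2.29 in warm. That of 14 endothelial markers was 0.705, 1.54 and 1.02 against 1.52, 7.02 and 3.59 there, with 12 of 14 higher, and in monocytes 4.90, 6.65 and 5.54 against 1.89 and 1.06, with 2 of 14 higher. The part of these in the results was not tested.

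Among the genes with large differences in these classes, Ccl4, Il1b and Cd14 were higher in warm. Ccl4, a chemokine, was 0.589, 0.958 and 0.261 in cold and 24.2, 14.9 and 17.9 in warm dendritic cells (4.99, SE 0.32, edgeR adjusted p = 1.35e-09). Il1b, an inflammatory cytokine, was 0.196, 0.368 and 0.392 in cold and 3.87, 3.05 and 6.15 in warm dendritic cells (3.70, SE 0.40, edgeR adjusted p = 3.56e-06). Both were higher in every warm library. Tnf, another inflammatory cytokine, did not pass the test in any of the 4 classes where it was tested (in dendritic cells −0.74, SE 0.38, edgeR adjusted p = 0.382). In monocytes Cd14, a co-receptor for lipopolysaccharide, was 0.806, 0.755 and 1.04 in cold and 7.45 and 7.53 in warm (3.10, SE 0.32, edgeR adjusted p = 1.22e-13).

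Chemokines and cytokines were higher in 14 of 29 tests, over 9 genes tested, with a median log2 difference of 1.12. In macrophages Ccl4 was 13.5, 18.9 and 15.7 in cold and 111, 102 and 107 in warm libraries (2.73, SE 0.15, edgeR adjusted p = 1.44e-12), and Ccl3 was 10.9, 12.5 and 7.18 against 45.6, 35.9 and 42.2 (2.00, SE 0.17, edgeR adjusted p = 3.13e-09). Il1b was 2.46, 2.06 and 3.25 in cold and 10.3, 12.8 and 16.3 in warm macrophages (2.34, SE 0.20, edgeR adjusted p = 1.42e-09). None of these overlapped between the groups. Rgs1, which limits G protein signalling in leukocytes, was 0.829, 2.43 and 1.06 in cold and 16.1, 22.5 and 15.8 in warm macrophages (3.62, SE 0.25, edgeR adjusted p = 8.64e-11).

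Further genes were among the largest differences of their class. In B cells Cd83, an activation marker, was 0.912, 1.12 and 1.23 in cold and 7.99, 6.67 and 7.28 in warm (2.72, SE 0.25, edgeR adjusted p = 3.12e-06), and Crem, a cAMP-responsive factor, was 0.0760, 0.264 and 0 against 3.07, 2.1 and 2.80 (4.12, SE 0.49, edgeR adjusted p = 2.43e-05). In T cells Vps37b was 0.857, 1.15 and 0.724 in cold and 11, 14.9 and 10.1 in warm (3.72, SE 0.26, edgeR adjusted p = 4.68e-07). In principal cells Gadd45b, a stress sensor, was 0.543, 0.0984 and 0.431 in cold and 10.7, 6.30 and 8.11 in warm (5.04, SE 0.41, edgeR adjusted p = 1.68e-07). In intercalated cells Bhlhe40 was 0.0931, 0.321 and 0.0911 in cold and 3.87, 2.86 and 4.02 in warm (4.12, SE 0.36, edgeR adjusted p = 2.67e-06). Warm and cold libraries did not overlap for any of these genes in the class named.

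Transcripts lower in warm cells were fewer and spread over classes. Rsrp1, an RNA splicing-related gene, was called lower in the most classes, 4, with a mean log2 difference of −1.14. In macrophages it was 4.09, 3.90 and 4.96 in cold and 1.97, 2.30 and 3.02 in warm (−0.82, SE 0.19, edgeR adjusted p = 0.00411). Slfn2, a schlafen gene of lymphocytes, was called lower in 3 classes and in B cells was 3.04, 2.90 and 3.46 in cold and 0.615, 0.865 and 0.280 in warm (−2.37, SE 0.40, edgeR adjusted p = 0.000829). The immunoproteasome gene Psmb8 was called in 3 classes, and Psmb10, another immunoproteasome gene, was 3.52, 2.22 and 2.08 in cold and 0.868, 0.620 and 0.716 in warm T cells (−1.77, SE 0.34, edgeR adjusted p = 0.00339). Filip1l, Crip1, Pfn1 and Arhgdib were each called lower in 3 classes. In intercalated cells Guca2a, which encodes guanylin, was 6.14, 7.34 and 6.38 in cold and 2.86, 3.12 and 2.50 in warm (−1.23, SE 0.18, edgeR adjusted p = 0.000330). Guca2a is among the leading genes of intercalated cluster 28, which held 98 of 147 cold and 131 of 310 warm intercalated cells. The part of the clusters in this difference was not tested. In cluster 12 S100a4 was 6.01, 7.69 and 8.23 in cold and 2.62, 3.66 and 3.95 in warm (−1.11, SE 0.20, edgeR adjusted p = 0.00476). Clec5a of macrophages and Sh2d1a of T cells, among the largest fitted decreases there, had 41 and 45 UMIs in cold and were listed at 0 throughout all warm libraries, so no fold is given.

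Transcripts of the thick ascending limb were higher in warm cells of several other classes. In endothelial cluster 2 Umod, the uromodulin gene of that segment, was 0.328, 0.350 and 0.122 in cold and 9.05, 6.17 and 8.80 in warm libraries (4.81, SE 0.28, edgeR adjusted p = 5.36e-17). Slc12a1, its sodium-potassium-chloride transporter, had 0 UMIs in cold and 123 in warm cells of that cluster, at least 37.3-fold higher at a floor of 3 UMIs over the cold group. The summed level of 8 ascending limb markers with UMIs in every library was 0.742, 1.45 and 0.518 in cold and 22.0, 17.4 and 23.8 in warm there, and all 8 were higher. It was 0.584 to 1.70 against 11.4 to 31.3 in cluster 12, 0.593 to 0.717 against 4.47 to 6.12 in macrophages, 0.624 to 0.849 against 3.40 to 4.75 in T cells and 0.491 to 0.965 against 2.74 to 4.09 in B cells. Their part in these results was not tested, and the ascending limb itself made up more of the warm libraries. In the mesangial and mural class the endothelial genes Ly6c1 (0.111, 0.994 and 0 in cold, 30.3, 22.3 and 12.0 in warm) and Ly6a (0.332, 0.745 and 0.496 against 23.2, 18.7 and 20.3) were among the largest differences. The summed level of 14 endothelial markers in that class was 3.07, 5.49 and 2.43 in cold and 48.1, 51.4 and 45.7 in warm, with 14 of 14 higher. That of the 8 ascending limb markers there was 0.790, 0.882 and 0.405 against 24.1, 9.78 and 5.51, with 8 of 8 higher, and of 11 principal cell markers 0.965, 2.84 and 1.22 against 3.74, 14 and 9.45, with 10 of 11 higher. The part of these in the stress gene values of that class was not tested.

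Fxyd2, a subunit of the tubular sodium pump, was called higher in 9 of 13 classes, macrophages among them. In macrophages it was 1.21, 1.36 and 1.93 in cold and 4.95, 6.05 and 5.55 in warm (1.88, SE 0.20, edgeR adjusted p = 8.59e-08). In fresh macrophages it was higher than in either stored group, at 11.4, 19.0 and 29.5 in cold and 17.9, 30.3 and 15.3 in warm, and the groups overlapped. Proximal tubule transcripts as a list were higher in 15 of 61 tests with a median of 0.47, and Fxyd2, a member of the list, gave 9 of the 15.

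Most genes called higher in warm fresh cells were called higher after storage as well. In the classes tested in both states, fresh libraries had 468 calls higher in warm (2.15% of 21807 tests) and 136 lower (0.624%). Of these, 53 and 17 were for genes listed at 0 in a fresh library, where the fitted size depends on the prior count. Of the 468, 448 were tested after cryopreservation, 417 of them with the same sign. Of the 468, 304 (65%) were called higher again and 3 were called in the opposite direction. The median log2 difference was 2.41 fresh and 1.40 cryopreserved. For the 1074 higher calls of cryopreserved cells the medians were 1.41 cryopreserved and 0.88 fresh. The lower calls were 224 without fresh cold library 1 and 63 without fresh cold library 2. Of the 136, 88 were tested after cryopreservation, 64 of them with the same sign, and 12 (8.82% of the 136) were called lower again. Hemoglobin genes gave 26 of the 136 and were not tested in cryopreserved classes. Over all cryopreserved tests 5.12% were called higher and 1.18% lower. Taken from the cryopreserved side, the 304 were 28.3% of 1074 higher calls, of which 765 were tested in fresh libraries, and the 12 were 4.96% of 242 lower calls, of which 228 were. Fresh and stored libraries are aliquots of the same suspensions and are not independent, so these shares are a description.

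The log2 difference between warm and cold itself changed with storage for 155 calls over 27664 tests, 45 more positive (0.163%) and 110 more negative (0.398%). This test took the 12 libraries as independent, although fresh and stored libraries are aliquots of the same suspensions. Of the stress genes 63 of 192 tests were more negative and 1 more positive, with a median change of −1.46. The study chose these genes as induced by warm dissociation of these kidneys, so the direction of the change is not independent of that choice. For 24 of the 63 the gene was listed at 0 in a library, all of them fresh cold libraries (Fosb in 3 of 3, and Fos, Egr1 and Atf3 in 1 of 3), where the fitted size of the change depends on the prior count. Fos changed in 10 classes, Fosb and Jun in 9, Hspa1a and Junb in 6, and Dusp1, Ppp1r15a, Btg2 and Jund in 4. Limited to genes with UMIs in all 12 libraries, 39 of 149 stress gene tests were more negative, with a median change of −0.80. The single more positive case was Hspa8 in endothelial cluster 2, with fresh levels of 5.57, 6.17 and 8.74 in cold and 12.2, 8.90 and 8.97 in warm and stored levels of 5.13, 4.90 and 6.14 against 19.8, 17.7 and 20.9.

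Levels in all 4 groups show how the groups stood to each other. In macrophages Jun was 1.52, 1.31 and 1.12 in fresh cold, 23.2, 17.6 and 25.8 in fresh warm, 14.6, 15.7 and 14.9 in cryopreserved cold and 29.0, 26.4 and 35.2 in cryopreserved warm libraries. The log2 difference was 4.08 fresh and 0.99 stored, and the change was −3.08 (edgeR adjusted p = 5.38e-08). Dusp1 showed the same order, with 0.440, 0.399 and 0.496 in fresh cold, 14.3, 11.5 and 12.5 in fresh warm, 8.47, 11.9 and 9.98 in stored cold and 22.7, 29.8 and 27.7 in stored warm macrophages. Hspa1a was 0, 0.0363 and 0.0620 in fresh cold and 36.3, 43.5 and 43.9 in stored cold macrophages, and lay at 37.9, 26 and 50.5 in fresh warm. In dendritic cells Fos was 0, 0.438 and 0.0874 in fresh cold, where library 1 is listed at 0 throughout, and 36.5, 23.4 and 15.8 in fresh warm, against 28.6 to 32.8 in stored cold. Over 192 pairs of a stress gene and a class, every cryopreserved cold library exceeded every fresh cold library in 143 and lay below in 2, where 12.1% and 13.6% of all 27664 pairs did so. These pairs include Fosb, listed at 0 in every fresh cold library, and Fos, Egr1 and Atf3, each listed at 0 in a fresh cold library. The study chose the genes as induced in warm-dissociated samples, so the count for cold cells is not independent of that choice. In warm-dissociated cells the counts were 109 above and 4 below, where 12.8% and 12.1% of all pairs did so. The storage contrast itself was not tested.

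**Figure D4:**
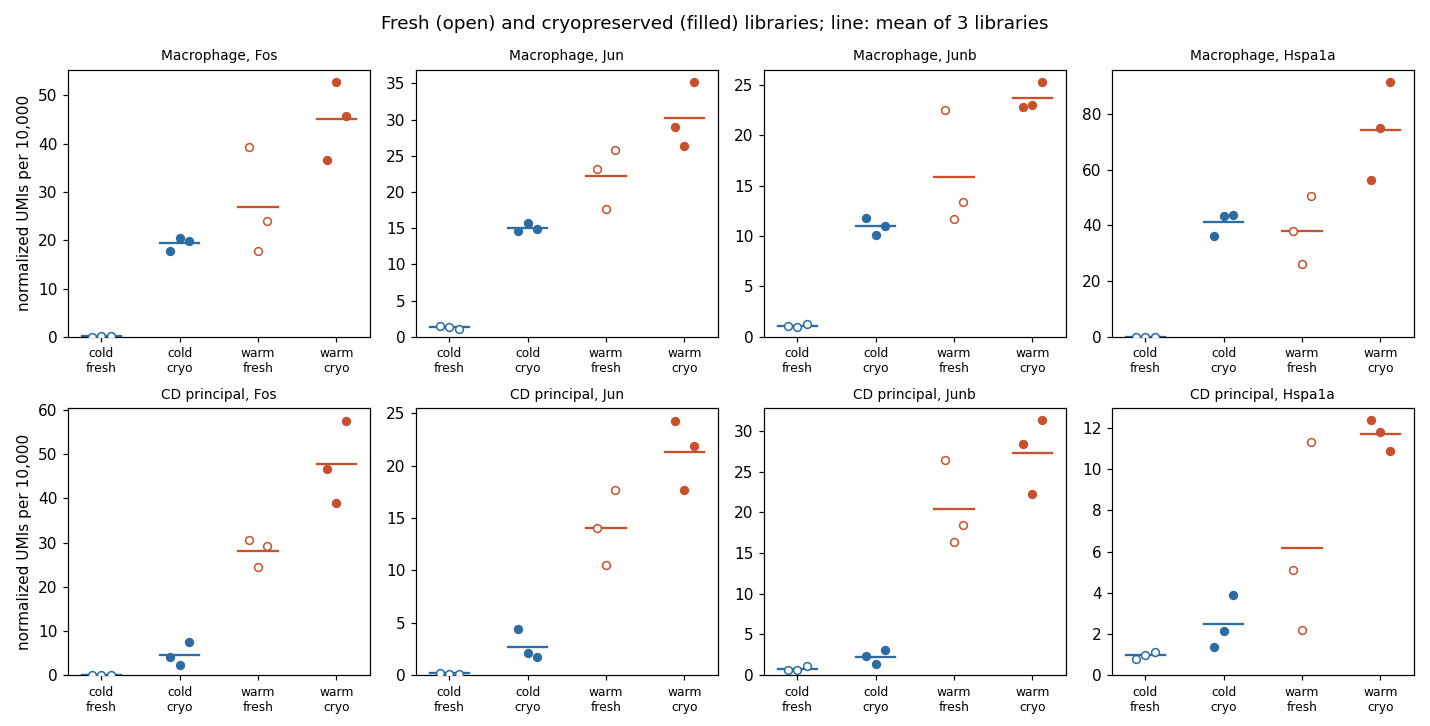
Levels of Fos, Jun, Junb and Hspa1a in normalized UMIs per 10000 in macrophages and collecting duct principal cells, each point a library, in fresh cold, fresh warm, cryopreserved cold and cryopreserved warm groups, with lines at the means. Fresh cold libraries are the lowest (Jun 1.12 to 1.52 in macrophages), and cryopreserved cold macrophages lie much nearer to the warm groups (14.6 to 15.7) than cryopreserved cold principal cells do (1.73 to 4.35); Fos of fresh cold library 1 is listed at 0 in every cell.

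In collecting duct principal cells the stored cold libraries held less of these transcripts. Jun was 0.226, 0.132 and 0.133 in fresh cold and 4.35, 2.07 and 1.73 in stored cold libraries, against 14.0, 10.5 and 17.7 in fresh warm and 24.3, 17.7 and 21.9 in stored warm. The change of its log2 difference was −3.34 (edgeR adjusted p = 0.00157). Junb did not pass the test of the change in these cells (−0.97, edgeR adjusted p = 0.576), with 0.621, 0.571 and 1.07 in fresh cold and 2.31, 1.38 and 3.02 in stored cold. In macrophages Junb did pass it (−2.72, edgeR adjusted p = 4.99e-06), with 1.08, 0.979 and 1.24 in fresh cold and 11.8, 10.1 and 11 in stored cold. Klf6 in macrophages and principal cells gave changes of −0.67 and 0.43 that did not pass it (edgeR adjusted p = 0.500 and 0.883).

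Over whole libraries the summed share of the stress genes was higher in every warm library than in every cold library. In a share of all UMIs the 17 genes made up 1.21, 1.05 and 1.36% in cold and 2.23, 2.36 and 2.48% in warm libraries (1.21 ± 0.155 against 2.36 ± 0.122, mean ± SD, n = 3 each; exact two-sided permutation p = 0.1, the smallest that 3 against 3 allows). The AP-1, feedback and heat shock lists also hold some of the 17. The share of AP-1 and immediate-early genes was 0.762 ± 0.0693 against 1.60 ± 0.0214%, of feedback regulators 0.433 ± 0.0334 against 0.789 ± 0.0329% and of heat shock genes 1.29 ± 0.207 against 1.87 ± 0.192%. The summed share of actin cytoskeleton genes went the other way, 2.43 ± 0.289 against 1.69 ± 0.139%. In sums over all cells 3 of these 12 genes were called lower and 0 higher, with Actb and Actg1 at log2 differences of −0.04 and 0.06. The share of mitochondrial genome transcripts was 15.4, 14.8 and 13.6% in cold and 22.6, 18.1 and 17.1% in warm (exact two-sided permutation p = 0.1), and its part in the other shares was not tested. None of these shares overlapped between groups. Median genes per cell at 500 UMIs were 285, 286 and 283 in cold and 256, 272 and 273 in warm (unthinned 702, 577 and 637 against 384, 590 and 524, which overlapped), with 26, 70 and 44 cold and 192, 59 and 79 warm cells left out as shallower. Genes that a library lists at 0 cannot be counted there.

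In sums over all cells of a library, 402 genes were higher in warm (3.99% of 10069) and 270 lower (2.68%). Fewer cells of a type and less RNA per cell cannot be told apart in such sums. Of the stress genes 14 of 17 were higher, as Egr1 at 2.06, 2.07 and 2.12 in cold and 6.44, 5.45 and 6.64 in warm (1.57, SE 0.12, edgeR adjusted p = 0.000830). Hspa1a, Hspa1b and Hsp90ab1 did not pass, Hspa1a at 13.9, 13.1 and 25 in cold against 30.5, 33.1 and 36.6 in warm (0.95, SE 0.24, edgeR adjusted p = 0.0567). In a fit of genes with UMIs in every library, chosen after the values were seen, 16 of the 17 were called higher. The largest differences were of genes listed at 0 throughout 3 libraries, so they are given as UMIs: Ptger3 had 117, Lnx1 101 and Slc5a1 92 in warm, all at 0 in cold. Clic3 had 1251, Tcf21 354 and Wt1 320 in cold, the latter 2 transcription factors of podocytes, all at 0 in warm. Pigr, Cldn16, Tmem207, Col5a2, Shd, Dusp15 and Slco4a1 were the others at 0 in cold, and Fgfbp1, Mmp23, Hs3st6, Rhpn1, Snx31, Tspan2 and Arvcf at 0 in warm. When cryopreserved cells were clustered alone, Clic3, Tcf21, Wt1, Fgfbp1, Mmp23, Hs3st6, Rhpn1 and Snx31 were among the leading genes of the podocyte cluster. That cluster held 127 cold cells and 1 warm cell.

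Among the genes with UMIs in all 6 libraries, chosen after the values were seen, Gdf15, a stress-responsive cytokine, was 0.0875, 0.05 and 0.142 in cold and 2.42, 0.898 and 1.19 in warm libraries (4.06, SE 0.40, edgeR adjusted p = 6.00e-05 in a fit of these genes alone). Umod was 0.705, 1.69 and 1.77 against 11, 7.76 and 14.2 (2.98, SE 0.30, edgeR adjusted p = 6.87e-05). Cdkn1c, a cell cycle inhibitor of podocytes, was 3.35, 2.43 and 3.61 against 0.170, 0.140 and 0.279 (−3.97, SE 0.24, edgeR adjusted p = 1.59e-06). The other genes named by the study were reported there as higher in cold, in some types of fresh cells. Sums over whole stored libraries do not test that report, as cell types and storage differ. In these sums mt-Co1 went the other way, higher in warm (0.66, edgeR adjusted p = 0.0175). In sums per class, 1 of 163 tests of mitochondrial genome transcripts was called. Malat1 was also higher in warm library sums, at 597, 703 and 716 in cold against 1103, 871 and 961 in warm (0.54, edgeR adjusted p = 0.0342, and 0.0639 in the fit of genes with UMIs in all libraries). The hemoglobin genes Hbb-bs, Hba-a1 and Hba-a2 did not pass in the library sums (edgeR adjusted p = 0.937, 0.582 and 0.954). Counts in these sums were unstable: leaving out any library other than cold library 2 left 74 to 216 genes higher and 33 to 173 lower, and weighting the classes equally left 165 and 87.

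The makeup of the stored suspensions differed as well. Ascending loop of Henle cells were 1.00, 1.90 and 1.81% of cells in cold and 10.3, 12.9 and 13.2% in warm libraries (log2 difference 2.92, SE 0.44, edgeR adjusted p = 2.15e-05). Distal convoluted tubule cells were 1.00, 1.72 and 0.906% against 5.26, 4.90 and 3.91% (1.91, SE 0.45, edgeR adjusted p = 0.00203). Neither overlapped. Intercalated cells were 3.23, 4.36 and 4.73% against 11.2, 5.90 and 9.04% (1.08, SE 0.42, edgeR adjusted p = 0.0495). This call was at the threshold and was lost without any 1 of the cold libraries or warm library 3 (edgeR adjusted p = 0.0858 to 0.164), and with doublets removed (0.0508). Podocytes, the filtration barrier cells of the glomerulus, were 125 cold cells and 1 warm cell, a ratio of shares of 0.00808 (95% exact interval 0.000203 to 0.0459, counting error only; edgeR adjusted p = 1.03e-06). Warm libraries 2 and 3 had 0 podocytes, which allows shares of up to 0.300 and 0.244%. The endothelial cluster led by Ehd3 and Pi16 was lower in warm, with 71 against 14 cells (−2.25, SE 0.53, edgeR adjusted p = 0.00203), as were monocytes (−1.62, SE 0.54, edgeR adjusted p = 0.0256) and neutrophils (−1.77, SE 0.69, edgeR adjusted p = 0.0495). The unnamed Cp/C3 cluster was 2.23 to 2.92% of cold and 1.70 to 3.59% of warm cells. The neutrophil call was also at the threshold and was lost without any 1 of the cold libraries (edgeR adjusted p = 0.0894 to 0.237) and with doublets removed (0.0508), and the monocyte call was lost without cold library 1 or 2 (0.164 and 0.0938), so that 2 classes were called lower without cold library 2. Proximal tubule cells were at 14 and 24 cells and were not tested for expression.

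**Figure D5:**
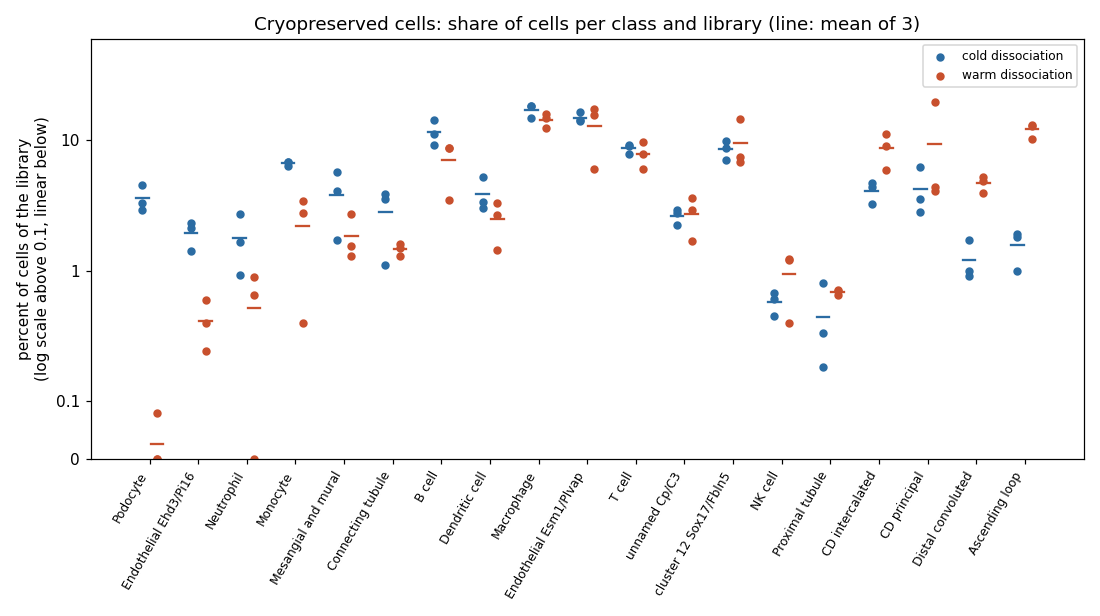
Percent of cells in each class, each point a cryopreserved library, cold and warm in separate colours with lines at the means, on an axis that is logarithmic above 0.1. Ascending loop of Henle cells are at 1.00 to 1.90% in cold and 10.3 to 13.2% in warm, and podocytes at 2.90 to 4.53% in cold and 0 to 0.0797% in warm.

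Principal cells made up 19.6% of warm library 1 and 4.10 and 4.40% of the other warm libraries, and 3.57, 6.2 and 2.82% of the cold libraries. The change of the warm-cold difference with storage passed the test for the ascending loop of Henle (1.75 more in stored libraries, SE 0.41, edgeR adjusted p = 0.00693) and the distal convoluted tubule (2.06, SE 0.42, edgeR adjusted p = 0.00437). Without warm library 2, 4 classes passed it in that direction, and without cold library 1, 1 class passed it in the other.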

How the data were processed

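Single-cell 10x libraries of whole mouse kidney were used, 6 cryopreserved and 6 fresh. Per the labels and the study's methods, the authors made the deposited UMI counts with Cell Ranger 2.1.1 and GRCm38/mm10, took cells with EmptyDrops, removed genes seen in fewer than 10 cells and cells with extreme gene numbers or mitochondrial shares, and analysed them with Seurat 2. The deposited values are raw UMI counts per gene and cell. The tables of the groups list different genes (13347 cold, 13114 warm), and genes removed in a library read 0 there.

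Cells of all 12 libraries were clustered together (scanpy 1.11.5; 2000 variable genes, 30 components, 20 neighbours, Leiden resolution 2). A cluster was named from 5 or more markers, or 3 leading ones, at 1.5-fold over other cells, thresholds set after the data were seen. Doublets were marked at 0.8% per 1000 barcodes (0.669 to 1.29% of a cryopreserved library) and kept in the main analysis. Counts were summed per library and class where it had 10 or more cells, and tested with edgeR 4.0.16 (quasi-likelihood, TMM, filterByExpr, Benjamini-Hochberg 0.05 within a class) in R 4.3.3, after a check on simulated data. The change with storage was the interaction of dissociation and storage. Cell numbers were tested with edgeR on counts of cells. Shares of UMIs were compared by exact permutation (scipy 1.17.1). Levels are normalized UMIs per 10000. Alternatives were DESeq2 1.42.0, limma 3.58.1 on equally weighted classes, no filter, other scalings and clusterings, the study's thresholds and leaving out each library. The labels name the samples triplicates without tying libraries to mice.

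Genes named were the 17 stress genes and 5 further genes of the study, up to 5 per class and direction by size among called genes, up to 10 called in the most classes or changed with storage in the most classes, 10 per direction in library sums, and members of described lists. The samples, lists and tests were chosen with earlier results of these data known. Promoter windows are from RefSeq.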

Additional observations from a re-analysis of the deposited data

Results flagged for a closer look

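The difference between warm and cold dissociation differed between fresh and cryopreserved libraries, by a test of the interaction in edgeR, for 155 combinations of a gene and a class. Fos did so in 10 classes, Fosb in 9, Jun in 9, Hspa1a in 6 and Junb in 6. Dusp1, Ppp1r15a, Btg2 and Jund each did so in 4. For these genes the log2 difference of warm over cold was smaller after storage on average over those classes. This is a change of ratio, and the change of the difference in levels was not tested. Fxyd2 did so in 5 classes, with a larger warm excess after storage (mean change 2.40 on the log2 scale). Fosb was listed at 0 in all 3 fresh cold libraries, and Fos in 1 of them, so the size of their changes is uncertain.

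Cell numbers differed in the same way for 2 classes. The log2 difference of warm over cold was larger in stored than in fresh libraries by 1.75 for the ascending loop of Henle and by 2.06 for the distal convoluted tubule.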

How the results depend on the processing

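In class sums the 1115 higher calls became 175 with the study's thresholds added and 898 to 1028 when 1 library was left out; the 257 lower calls became 98 with DESeq2, 442 with no filter on low counts, 60 with the study's thresholds and 156 to 205 with 1 library left out. Fresh calls (468 higher, 136 lower) became 774 and 293 with no filter and 120 and 25 with the study's thresholds, the lower ones 77 with DESeq2, and with 1 library left out 322 to 532 and 63 to 224. Changes with storage (45 more positive, 110 more negative) became 178 and 201 with no filter, 12 and 60 with the study's thresholds, and 31 to 48 and 88 to 107 with 1 library left out. Library sums (402 higher, 270 lower) became 671 and 549 with DESeq2, 165 and 87 with classes weighted equally, 681 and 491 among genes with UMIs in every library, and 74 to 398 and 33 to 214 with 1 library left out. Of the cell classes the 4 lower became 2 at Leiden resolution 1 and with TMM factors, and 2 to 6 with 1 library left out; the 3 higher became 2 to 4, the 2 changed upward 2 to 4, and the 0 changed downward 1 with TMM factors and 0 to 1. Apoe in the ascending loop of Henle ranged from −1.47 to 0.24 with 1 library left out, the latter without cold library 2 (edgeR adjusted p = 0.908), and the hemoglobin share, warm minus cold, from −0.00248 to 0.000268 percentage points, the latter without cold library 3. The neutrophil number lost its call over cells outside the proximal tubule (edgeR adjusted p = 0.0619), and both it and the monocyte number at Leiden resolution 1 (0.148 and 0.099) and with TMM factors (0.141 and 0.0542). The causes were not tested, apart from fewer samples or other sets of genes by construction. The 135 higher stress gene calls of 197 tests ranged from 71 with the study's thresholds to 177 of 274 tests with cryopreserved cells clustered alone. Leaving out fresh libraries, and the restriction to genes with UMIs in every library, were chosen after seeing the data.

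Cell names give same-numbered cold and warm libraries a shared code whose meaning the labels do not state. Their deviations from the group means had correlations of 0.01, −0.17 and −0.04 over all cryopreserved cells, and 0.18, 0.17 and −0.01 over fresh cells. In cryopreserved class sums these were 0.00 to 0.08 in B cells, 0.01 to 0.07 in T cells and −0.00 to 0.02 in macrophages. With 3 libraries a group these values cannot decide whether the libraries are pairs. They were not treated as pairs, which does not show that they are unrelated. With the replicate number as a block, class sums gave 1078 higher and 265 lower calls, fresh 488 and 167, changes 57 and 129, library sums 81 and 36, and cell classes 2 and 4. Lower stress gene calls were 4 with the block, against 9, and the intercalated cell number lost its call (edgeR adjusted p = 0.16), as it did at Leiden resolution 1 (0.096) and over cells outside the proximal tubule (0.0517).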
